A study of Sus scrofa with 12 samples.

Results

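The miR-10, miR-99/100 and miR-125 families were described in the ovaries of 6 sows, 3 with a small litter size (SLS) and 3 with a large litter size (LLS). The members were picked by their names, with earlier results of these data known, as every listed mature form, from either arm, of miR-10a, miR-10b, miR-99a, miR-99b, miR-100, miR-125a and miR-125b. This gave 9 of the 457 listed miRNAs, of which 3 belong to the miR-10 family (miR-10a-5p, miR-10a-3p and miR-10b), 4 to the miR-99/100 family (miR-99a-5p, miR-99a-3p, miR-99b and miR-100) and 2 to the miR-125 family (miR-125a and miR-125b). Sows came from a commercial piggery, and the left ovary was taken 4 days after delivery number 4. The SLS group averaged 8.48 ± 0.53 piglets per litter and the LLS group 16.19 ± 0.43, where the error is taken to be the SEM that the methods state for results in general. Neither group received a treatment. The SLS ovaries are named ZD2, ZD3, ZD12 and the LLS ovaries ZD5, ZD7, ZD8, and each ovary gave 1 small RNA library and 1 total RNA library, so p-values measure the spread between single libraries of different sows.

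A mature miRNA is cut from either arm of a short hairpin, called 5p or 3p after the end of the hairpin on which it lies, and it pairs with messenger RNAs mainly through its seed, bases 2 to 8. The miR-10 genes sit among the HOX genes, which set position along the body axis. The miR-99/100 and miR-125 genes lie together with let-7 genes in clusters that are conserved among animals, and let-7 and miR-125 are known as brakes on genes of early development such as LIN28. The miR-99/100 members are known to act on MTOR, a kinase that couples growth to nutrient supply.

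The 9 mature sequences are shown because they decide which members can share targets and which can share reads. They are given as deposited, in DNA letters from the 5′ end, with the seed in capitals.
miR-10a-5p: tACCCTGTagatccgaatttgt
miR-10b: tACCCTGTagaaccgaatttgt
miR-10a-3p: cAAATTCGtatctaggggaat
miR-99a-5p: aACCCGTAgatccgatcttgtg
miR-99b: cACCCGTAgaaccgaccttgcg
miR-100: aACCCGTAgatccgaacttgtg
miR-99a-3p: cAAGCTCGcttctatgggtct
miR-125a: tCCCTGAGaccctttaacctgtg
miR-125b: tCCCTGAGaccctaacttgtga

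Members grouped by seed as their names do. The seed ACCCTGT was shared by 2 listed miRNAs, miR-10a-5p and miR-10b. Its counterpart ACCCGTA was shared by 3, miR-99a-5p, miR-99b and miR-100, and CCCTGAG by 2, miR-125a and miR-125b. The seeds of miR-10a-3p and miR-99a-3p were each found in 1 listed miRNA. Counting positions from 1 at the 5′ end, miR-10a-5p differed from miR-10b by the single substitution A12T, and miR-100 differed from miR-99a-5p by T16A. For miR-99b, 18 of 22 bases were identical to miR-99a-5p. In a global alignment, miR-125a (23 bases) and miR-125b (22 bases) had 20 bases in common, and the first 13 were the same. Across families, miR-10a-5p and miR-100 shared the run gtagatccgaa one base out of register, from position 7 of miR-10a-5p and position 6 of miR-100, whereas the longest run shared by miR-10b and miR-99a-5p was 5 bases.

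Exact matches of these sequences were located in Sscrofa11.1, the build to which the authors mapped their reads. miR-99b and miR-125a lie on the minus strand of chromosome 6 at 58332253 to 58332274 and 58331613 to 58331635, with let-7e at 58332091 to 58332112 between them. Their 3 hairpins span 715 bases between the lncRNA LOC110261042 and SIGLEC14, outside any annotated gene other than the hairpins. On chromosome 9, miR-100 lies at 49157952 to 49157973 and miR-125b at 49109485 to 49109506, both on the minus strand. Here MIR100, MIRLET7A-1 and MIR125B-1 span 48554 bases, and MIR125B-1 is in an intron of LOC106504205 on the same strand. On the plus strand of chromosome 13, miR-99a-5p lies at 181302494 to 181302515 and miR-99a-3p at 181302531 to 181302551, in an intron of LOC106508546 together with let-7c. A second match of miR-125b, at 181350062 to 181350083, falls in an exon of the same gene. So the reads of miR-125b cannot be divided between its chromosome 9 and chromosome 13 copies. miR-10a-5p (24833694 to 24833715) and miR-10a-3p (24833654 to 24833674) lie on the minus strand of chromosome 12, outside an annotated gene and 6137 and 6097 bases from HOXB3. miR-10b lies on the plus strand of chromosome 15 at 81951653 to 81951674, 17808 bases from HOXD3.

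Small RNA libraries held between 3537619 and 9854086 reads, 97.6% to 98.7% of them on listed miRNAs, and levels are given as RPM, the reads of a miRNA scaled to an equal total in each library. For a share of reads the 95% interval covers counting error only. As a check of the tissue, the luteal genes STAR, CYP11A1, HSD3B1 and SCARB1 lay between 1044 and 5418 FPKM (fragments scaled to transcript length and library total) in 5 ovaries and between 16.8 and 31.2 in LLS ovary ZD8. Among further luteal marker genes, LHCGR and PTGFR were also lowest in ZD8 (10.4 and 17.0 FPKM, against 22.5 to 70.5 and 57.8 to 148). PRLR went the other way, at 1.16 FPKM in ZD8 and at most 0.167 FPKM in the other ovaries. ZD8 stands apart from the other ovaries in its luteal genes, and the group differences of members, families and arms are therefore also given without it. The aromatase gene CYP19A1, a marker of granulosa cells of growing follicles, was listed at 0 in 5 ovaries and at 0.014 FPKM in ZD5.

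miR-125b was the most abundant member. Its level was 10019, 22910 and 45391 RPM in the SLS ovaries (ZD2, ZD3, ZD12, in this order throughout) and 15968, 14288 and 34932 RPM in the LLS ovaries (ZD5, ZD7, ZD8). It ranked between 6 and 15 among the 457 listed miRNAs of a library. ZD12 and ZD8, 1 ovary of each group, were the 2 highest, and the groups overlapped. The paralogue miR-125a, which shares the seed, read 1472, 4160 and 8083 RPM in the SLS ovaries and 4200, 3225 and 6653 RPM in the LLS ovaries. It was lowest in ZD2 and again highest in ZD12 and ZD8. For each read of miR-125a there were 6.80, 5.51 and 5.62 reads of miR-125b in the SLS ovaries and 3.80, 4.43 and 5.25 in the LLS ovaries, so this ratio was lower in each LLS ovary than in any SLS ovary. Its means were 5.98 ± 0.720 and 4.49 ± 0.726 (SD, n = 3 each), and an exact two-sided permutation test gave p = 0.1, the smallest that 3 against 3 ovaries allow. It was the only one of the 9 ratios computed among members and their let-7 neighbours in which the groups did not overlap, against 2460 of the 60726 ratios between pairs of tested miRNAs (4.05%).

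miR-99a-5p was the second member in abundance. Its level was 4530, 4585 and 8433 RPM in the SLS ovaries and 3308, 4152 and 9328 RPM in the LLS ovaries, so that ZD12 and ZD8 lay 1.84-fold or more above the highest of the other ovaries. Its ranges and those of miR-125a overlapped, and the difference between these neighbours in the order of levels was not tested. Within ovaries, miR-99a-5p lay above miR-125a in all but ZD5 (3308 against 4200 RPM). miR-100, its near-identical relative, read 29.3, 30.2 and 58.8 RPM in the SLS ovaries and 25.1, 27.0 and 60.3 RPM in the LLS ovaries. The same 2 ovaries stood out for miR-100. The product of the other arm, miR-99a-3p, read 84.9, 219 and 650 RPM in the SLS ovaries and 194, 102 and 372 RPM in the LLS ovaries. It varied 7.66-fold between the lowest ovary, ZD2, and the highest, ZD12.

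miR-99b differed from the rest of its family. It read 941, 1232 and 1264 RPM in the SLS ovaries and 1342, 1419 and 1068 RPM in the LLS ovaries. The highest ovary, ZD7, was 1.51-fold above the lowest, ZD2, and neither ZD12 nor ZD8 was raised. On the log2(RPM + 1) scale its standard deviation over the 6 ovaries was 0.22, the ninth smallest of the 353 miRNAs tested, whose median was 0.55. This steadiness depends on the scaling. With library factors from the trimmed mean of M values (TMM) the standard deviation of miR-99b was 0.18, and with each library centred on its median miRNA it was 0.38, rank 77 of 353. ZD8 became the highest ovary for miR-99b under both of these scalings. For the other members the standard deviation was between 0.43 (miR-10b) and 1.16 (miR-10a-3p).

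The miR-10 family was the least abundant. miR-10b read 181, 237 and 349 RPM in the SLS ovaries and 289, 227 and 410 RPM in the LLS ovaries, where ZD8 and ZD12 were the 2 highest and ZD5 came next. miR-10a-3p read 5.82, 5.37 and 19.3 RPM in the SLS ovaries and 3.89, 5.46 and 35.4 RPM in the LLS ovaries. miR-10a-5p was near the limit of the depth, at 1.54, 3.11 and 4.06 RPM in the SLS ovaries and 1.62, 1.92 and 9.55 RPM in the LLS ovaries. These values rest on 9 to 83 reads, where 3 reads correspond to between 0.304 and 0.848 RPM. Values of both miR-10a products were again highest in ZD8 and ZD12.

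**Figure D1:**
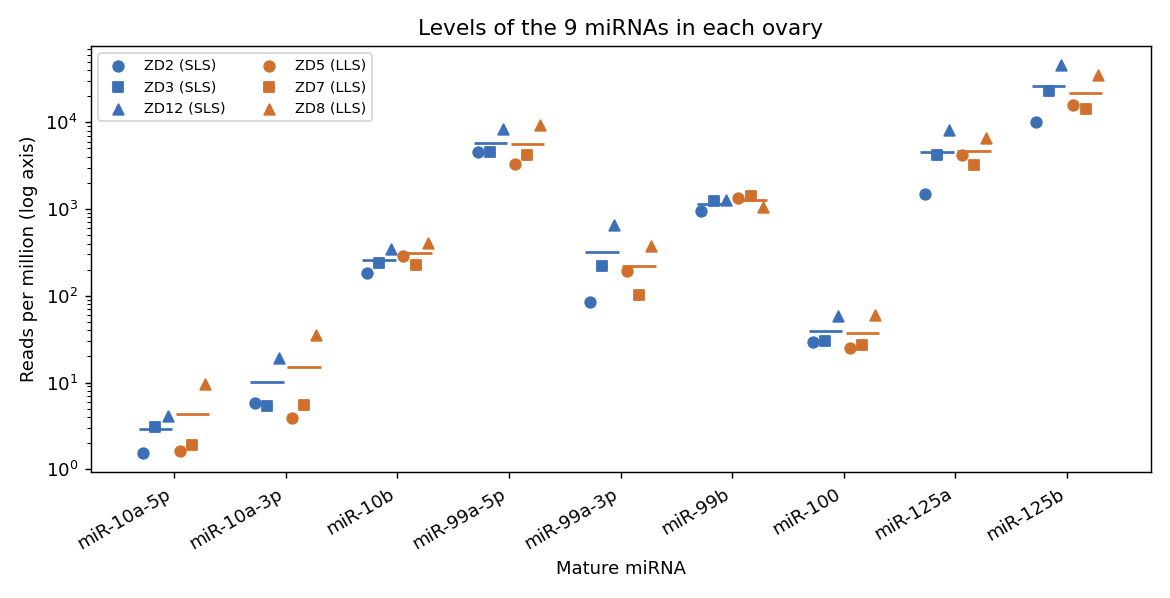
RPM (log axis) of the 9 mature miRNAs in each ovary, with SLS ovaries in blue, LLS ovaries in orange and a horizontal line at each group's mean. For 8 of the 9 miRNAs the triangles, ZD12 and ZD8, are the highest point of their group, whereas miR-99b stays between 941 and 1419 RPM.

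By mean level, the order was miR-125b, miR-99a-5p, miR-125a, miR-99b, miR-10b, miR-99a-3p, miR-100, miR-10a-3p and miR-10a-5p. Ranges of neighbours over all ovaries overlapped for miR-99a-5p with miR-125a, miR-10b with miR-99a-3p, miR-100 with miR-10a-3p, and miR-10a-3p with miR-10a-5p, and not for the other neighbours. Within each ovary, however, miR-100 lay above miR-10a-3p, and miR-10a-3p above miR-10a-5p. miR-99a-5p lay above miR-125a in each ovary except ZD5, and miR-10b above miR-99a-3p in each ovary except ZD12. All 9 miRNAs are of like length, so no length correction was made, but ligation of small RNAs can favour some sequences.

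ZD12 and ZD8 had the 2 highest values for 8 of the 9 members. The same held for 55 of the 353 miRNAs tested (15.6%). Under TMM the counts were 8 of 9 and 92 of 353 (26.1%), and under median centring they were 9 of 9 and 117 of 353 (33.1%). Members of a family share hairpins or near-identical sequences and are not independent of each other.

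Theca and oocyte markers moved with these 2 ovaries, and granulosa markers did so only in part. Both theca genes of the marker list, CYP17A1 and INSL3, were highest in ZD8 (117 and 298 FPKM) and next in ZD12 (29.4 and 45.1 FPKM), against at most 10.4 and 11.6 FPKM elsewhere. Summed over the list, the theca level was 13.9 to 74.4 FPKM in SLS and 9.31 to 415 FPKM in LLS ovaries. Of the 7 oocyte genes, 6 had ZD8 and ZD12 as the 2 highest ovaries, with list sums of 6.31 to 23.0 FPKM in SLS and 8.21 to 126 FPKM in LLS ovaries. For GDF9, an oocyte growth factor, ZD8 and ZD12 had 40.6 and 11.3 FPKM and the others 5.41 to 8.16. Of the 6 granulosa genes, FSHR, AMH and FOXL2 showed the pattern, while INHA, INHBA and CYP19A1 did not. The sum of this list was highest in ZD12 (772 FPKM) and lowest in ZD8 (130 FPKM), within ranges of 387 to 772 FPKM in SLS and 130 to 300 FPKM in LLS ovaries. Of all 12260 genes tested, 3588 (29.3%) had the same 2 highest ovaries. For the 7 luteal genes the list sum was 124 FPKM in ZD8 but 9167 FPKM in ZD12, against 9605 to 12191 FPKM in the other 4 ovaries. In the small RNA libraries, miR-126-3p, a marker of endothelial cells, was lowest in ZD8 and ZD12 (21359 and 28118 RPM against 60244 to 100881), and so was miR-451 of red cells (361 and 1900 RPM against 7552 to 59104). The leukocyte miRNAs were lowest there too, with 12.9 and 30.3 RPM against 33.8 to 156 for miR-223, 176 and 181 RPM against 387 to 968 for miR-142-3p, and 309 and 165 RPM against 430 to 1434 for miR-142-5p. The leukocyte genes went the other way in ZD8, where the macrophage sum was 30.2 FPKM against 13.7 to 25.3 FPKM elsewhere and the T cell sum 12.6 FPKM against 1.91 to 4.46 FPKM. The endothelial genes followed miR-126-3p in ZD8, with a list sum of 115 FPKM, but less clearly in ZD12. In ZD12 this sum was 244 FPKM, against 258 to 371 FPKM in the other 4 ovaries, and PECAM1 was second highest, at 89.4 FPKM. Both products of miR-145, a marker of smooth muscle, were highest in ZD8 and ZD12, with 7001 and 6454 RPM against 1406 to 3982 for miR-145-5p and 1987 and 1705 RPM against 622 to 1218 for miR-145-3p. The other smooth muscle miRNA, miR-143, did not show this, with miR-143-3p at 71604 RPM in ZD12 and 77243 RPM in ZD3, and only 1 of the 5 smooth muscle genes had ZD8 and ZD12 as the 2 highest ovaries. The part of these cell types in the levels of the members was not tested. In whole ovaries, fewer cells of a type and less RNA per cell cannot be told apart.

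Together the 9 members took 1.73%, 3.34% and 6.43% of the SLS libraries and 2.53%, 2.34% and 5.29% of the LLS libraries. The mean was 3.83% ± 2.39 in SLS and 3.39% ± 1.65 in LLS ovaries (SD, n = 3 each). miR-125b alone gave between 58.0% and 70.6% of this sum in an ovary. The miR-125 family took 1.15%, 2.71% and 5.35% of the SLS libraries and 2.02%, 1.75% and 4.16% of the LLS libraries, with means of 3.07% ± 2.12 and 2.64% ± 1.32. The miR-99/100 family took 0.559%, 0.607% and 1.04% in SLS and 0.487%, 0.570% and 1.08% in LLS ovaries, with means of 0.735% ± 0.265 and 0.713% ± 0.323. The miR-10 family took 0.0189%, 0.0245% and 0.0372% in SLS and 0.0295%, 0.0235% and 0.0455% in LLS ovaries, with means of 0.0269% ± 0.00940 and 0.0328% ± 0.0114. In each family the difference between the group means was smaller than the standard deviation within either group, and the shares of the groups overlapped. Without ZD8, the LLS mean minus the SLS mean was -1.18 percentage points for the miR-125 family, -0.207 for the miR-99/100 family and -0.0004 for the miR-10 family. Without ZD12 it was positive for each, at 0.714, 0.131 and 0.0111 percentage points in the same order.

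**Figure D2:**
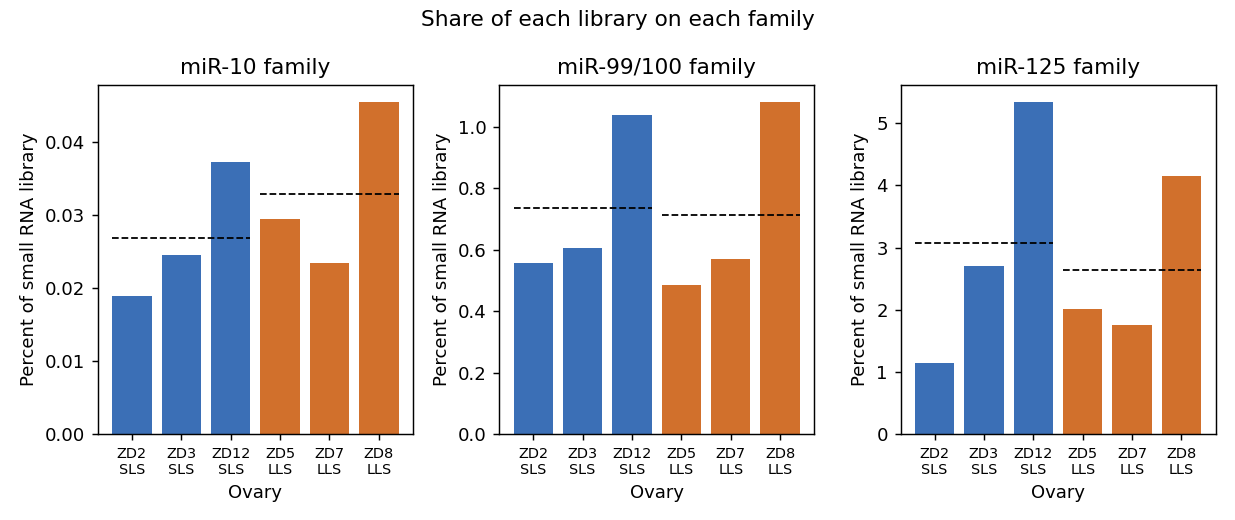
Percent of each small RNA library on the miR-10, miR-99/100 and miR-125 families, 1 bar for each ovary (SLS blue, LLS orange), with a dashed line at each group's mean and a separate vertical scale for each family. The miR-125 family ranges from 1.15% to 5.35%, and the tallest bars of the SLS and LLS groups are ZD12 and ZD8 in each panel.

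None of the members differed between LLS and SLS ovaries beyond the spread within groups. All 9 passed the filter of at least 1 RPM in at least 3 libraries. In the limma fit of log2(RPM + 1) over all miRNAs, 0 of 353 were called (0.0%) with the thresholds of 0.05 for the adjusted p and 1 for the absolute log2 difference, and 0 reached an unadjusted p under 0.05. On the recovered reads, edgeR's quasi-likelihood test, edgeR's exact test and DESeq2 also called 0, with 4, 3 and 7 miRNAs at an unadjusted p under 0.05, none of them a member. The values of SLS and LLS ovaries did not overlap for 10 of the 353 miRNAs (2.83%) and for 0 of the 9 members.

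The log2 differences of LLS minus SLS from limma were small beside their standard errors. They were 0.29 ± 0.63 (SE) for miR-125a, 0.28 ± 0.42 for miR-10b, 0.20 ± 0.59 for miR-10a-5p, 0.16 ± 0.34 for miR-99b and 0.13 ± 0.83 for miR-10a-3p. Negative differences were found for miR-99a-3p (-0.24 ± 0.77), miR-99a-5p (-0.15 ± 0.50), miR-125b (-0.13 ± 0.63) and miR-100 (-0.11 ± 0.54). Each had an adjusted p of 0.997. An exact two-sided permutation test of single members gave p between 0.5 and 0.9, where 3 against 3 ovaries cannot go below 0.1. The 95% interval was narrowest for miR-99b, from -0.62 to 0.93, and widest for miR-10a-3p, from -1.76 to 2.02, so changes of more than 2-fold remain within the intervals of 8 members.

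Without ZD8 the differences were -0.59 for miR-99a-5p, -0.53 for miR-125b, -0.50 for miR-100, -0.71 for miR-99a-3p, -0.77 for miR-10a-3p and -0.44 for miR-10a-5p, with adjusted p of 0.952 each. Those for miR-10b, miR-125a and miR-99b were 0.055, 0.0031 and 0.28. Without ZD12 all 9 were positive, from 0.15 (miR-99a-5p) to 0.86 (miR-125a). The sign of 6 differences thus turned with which of these 2 ovaries was left out, and miR-10b, miR-125a and miR-99b kept theirs. That of miR-125a turned without ZD2, to -0.37.

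**Figure D3:**
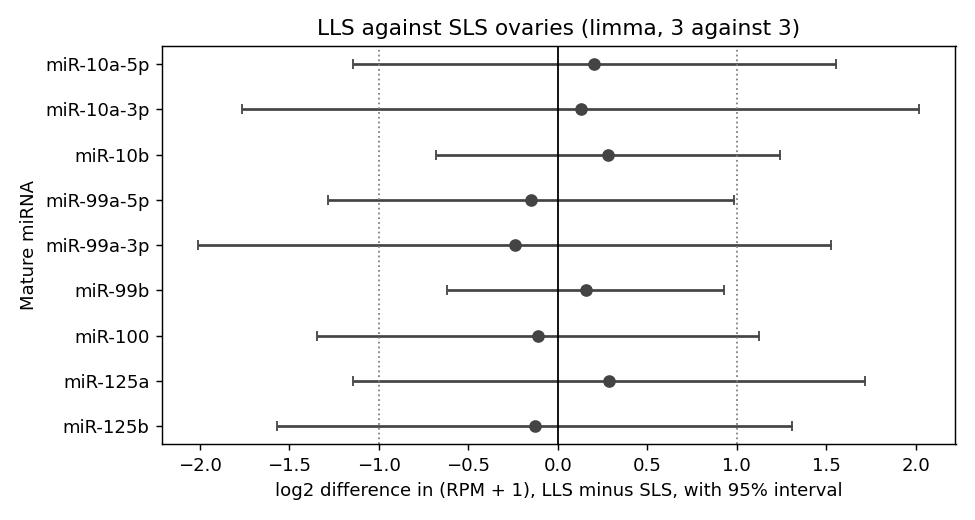
Difference of log2(RPM + 1), LLS minus SLS, for the 9 miRNAs from the limma fit, with the 95% interval as a bar and dotted lines at the absolute threshold of 1. Every interval includes 0, and that of miR-99b is the narrowest, from -0.62 to 0.93.

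Both arms were listed for miR-10a and miR-99a, and they differed in which arm was the more abundant. For miR-10a the 3p arm led in each ovary. The 5p arm had 20.9% (95% Wilson interval 11.4% to 35.2%), 36.7% (21.9% to 54.5%) and 17.4% (13.0% to 22.8%) of the miR-10a reads in the SLS ovaries. In the LLS ovaries it had 29.4% (16.8% to 46.2%), 26.0% (15.9% to 39.6%) and 21.2% (17.5% to 25.6%). These shares rest on 30 to 391 reads, and in ZD3 the interval includes equal use. Of the 91 hairpins with both arms listed and at least 20 reads in each library, the 3p arm led in each ovary for 34 (37.4%). Since miR-10a-5p differs from miR-10b at 1 base, its reads are those most open to a shift between the pair. The mean share on the 3p arm was 75.0% ± 10.3 in SLS and 74.5% ± 4.11 in LLS ovaries (SD; exact two-sided permutation p = 0.9, n = 3 each), and without ZD8 the difference was -2.71 percentage points. Leaving out another ovary gave from -6.39 points (without ZD3) to 3.25 points (without ZD12), so its sign was not stable.

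For miR-99a the 5p arm held more than 9 reads in 10 in every ovary. The 3p arm had 1.84% (95% Wilson interval 1.69% to 2.01%), 4.56% (4.26% to 4.88%) and 7.16% (6.99% to 7.33%) of the reads in the SLS ovaries. In the LLS ovaries it had 5.53% (5.23% to 5.84%), 2.39% (2.22% to 2.57%) and 3.83% (3.71% to 3.97%). None of these intervals overlapped another, but at 16995 to 89500 reads an ovary they are narrow and cover counting error alone, not the variation between libraries or sows. The share on the 3p arm was highest in ZD12 and lowest in ZD2, which are both SLS. Its mean was 4.52% in SLS and 3.92% in LLS ovaries, and the share on the 5p arm was 95.5% ± 2.66 and 96.1% ± 1.57 (SD; exact two-sided permutation p = 0.8, n = 3 each), and without ZD8 the difference on the 5p arm was 0.558 percentage points. This difference turned to -0.718 points without ZD12 and -0.163 without ZD7, and it was 1.94 without ZD2.

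**Figure D4:**
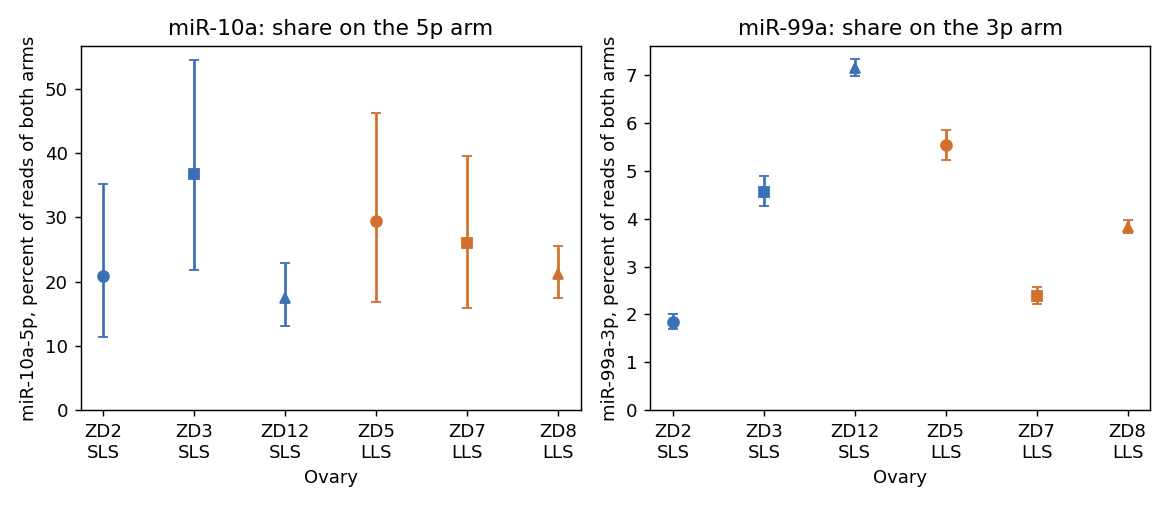
Percent of the reads of both arms on miR-10a-5p (left) and on miR-99a-3p (right) in each ovary, with the 95% Wilson interval as a bar (SLS blue, LLS orange). The intervals of miR-10a-5p are wide and overlap, while those of miR-99a-3p, from 1.84% in ZD2 to 7.16% in ZD12, are separate from each other.

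The pairs that differ by 1 base were compared as ratios. miR-100 amounted to 0.646%, 0.660% and 0.697% of miR-99a-5p in the SLS ovaries and 0.760%, 0.651% and 0.647% in the LLS ovaries. The coefficient of variation of this ratio was 6.66%, while miR-99a-5p itself varied 2.82-fold. Among the 13 pairs of listed miRNAs of equal length with 1 mismatch and with reads in every library, this coefficient was the smallest, followed by 12.1% for miR-107 over miR-103. It also had the lowest maximum ratio of the 13. Over the 348 tested miRNAs with reads in every library, the ratio to miR-99a-5p was steadiest for miR-100, with a standard deviation of 0.093 on the log2 scale against a median of 0.95, and miR-210 came next with 0.20. miR-10a-5p amounted to 0.849%, 1.31% and 1.16% of miR-10b in the SLS ovaries and 0.561%, 0.844% and 2.33% in the LLS ovaries. In ZD8 its share of the pair was 2.28% (95% Wilson interval 1.84% to 2.81%), above the interval of ZD12 (0.846% to 1.56%). How mismatches and reads with several matches were counted is not given in the sources used here. The levels of miR-100 and miR-10a-5p are therefore uncertain, since true expression and reads of the abundant relative cannot be told apart.

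Mature miRNAs of one cluster did not keep one ratio. On chromosome 6, where the hairpins of miR-125a, let-7e and miR-99b lie within 715 bases, there were 1.56, 3.38 and 6.40 reads of miR-125a for each read of miR-99b in the SLS ovaries. In the LLS ovaries there were 3.13, 2.27 and 6.23. Both ovaries with high miR-125a thus had the highest ratio, while miR-99b was flat. let-7e, the third member of this cluster, read 698, 2175 and 2730 RPM in SLS and 2533, 1516 and 1935 RPM in LLS ovaries, and its ratio to miR-99b ran from 0.741 (ZD2) to 2.16 (ZD12). On chromosome 13, let-7c read 9953, 30967 and 51348 RPM in SLS and 23251, 17241 and 50074 RPM in LLS ovaries. The ratio of let-7c to miR-99a-5p ran from 2.20 in ZD2 to 7.03 in ZD5. The ratio of let-7c to miR-125b moved less, from 0.993 in ZD2 to 1.46 in ZD5. let-7a, whose sequence is that of the chromosome 9 cluster and of hairpins elsewhere, read 11569 to 31486 RPM and was highest in ZD12 and ZD8. The let-7 differences between LLS and SLS were 0.10 ± 0.49 for let-7a, 0.11 ± 0.68 for let-7c and 0.28 ± 0.54 for let-7e (log2 ± SE, limma adjusted p = 0.997 each).

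The hairpin genes also have rows in the total RNA table, which were looked at after their values were known. MIR99B had 1.41, 1.11 and 10.8 FPKM in the SLS ovaries and 0.744, 1.17 and 40.3 FPKM in the LLS ovaries. MIR99A had 0.616, 2.42 and 3.78 FPKM in the SLS ovaries and 1.95, 0.821 and 24.4 FPKM in the LLS ovaries. Both hairpin genes were highest in ZD8 and next in ZD12. ZD8 and ZD12 were the 2 highest libraries for 54 of the 177 hairpin genes above 0 in at least 1 library (30.5%). In the same ovaries miR-99a-5p was high. miR-99b was not raised there on the RPM scale, but it was highest in ZD8 under TMM and highest in both under median centring. The FPKM values of MIR99B correspond to 6, 4 and 40 reads in SLS and 3, 5 and 91 reads in LLS ovaries, recovered from the step that 1 read makes in a row of that length. MIR100 had 4, 0 and 6 reads in SLS and 1, 0 and 22 in LLS ovaries. MIR125B-1 had 1, 2 and 11 and then 1, 0 and 11 reads, and MIR125A and MIR10B had at most 10 reads in any library. MIR10A was listed at 0 in each library. These are low numbers in libraries of 32272803 to 60903268 reads, and the total RNA reads were not selected for hairpins. ZD8 was the highest library for 6 of the 7 member hairpin genes, and the other, MIR10A, was at 0 throughout. Among all 177 hairpin genes above 0 in any library, a base without MIR10A, ZD8 was the highest for 121 (68.4%). So most hairpin genes were highest in that library.

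**Figure D5:**
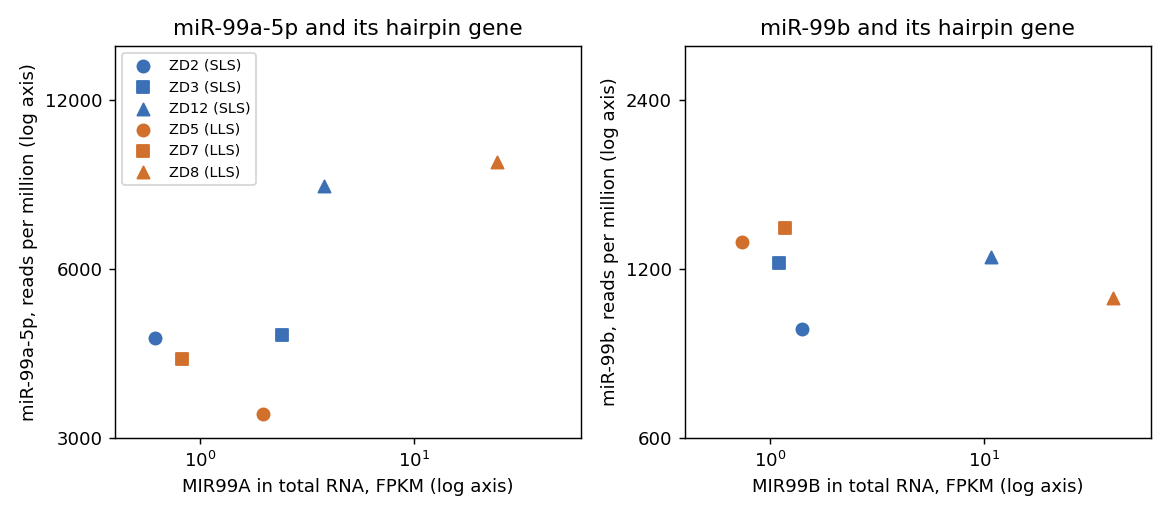
Level of the mature miRNA in the small RNA library (RPM, log axis) against its hairpin gene in the total RNA library of the same ovary (FPKM, log axis), for miR-99a-5p and miR-99b, with 1 point for each ovary. MIR99B spans 0.744 to 40.3 FPKM while miR-99b, on the RPM scale, stays between 941 and 1419 RPM, and miR-99a-5p is highest in the 2 ovaries with the most MIR99A.

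Of the genes that hold or flank the hairpins, some were likewise highest in ZD8. LOC106508546, which holds MIR99A, MIRLET7C and a match of miR-125b, had 1.74, 5.09 and 3.96 FPKM in SLS and 2.69, 1.11 and 18.3 FPKM in LLS ovaries. LOC106504205, the host of MIR125B-1, had 0.799, 1.01 and 1.11 FPKM in SLS and 0.629, 0.415 and 5.96 FPKM in LLS ovaries. LOC110261042, the lncRNA next to MIR125A, had 1.65, 1.01 and 3.16 FPKM in SLS and 1.12, 0.729 and 17.0 FPKM in LLS ovaries. These 3 genes were picked after their values were seen, and their log2 differences of 0.29 ± 0.75, 0.36 ± 0.57 and 0.53 ± 0.82 (SE) had a limma adjusted p of 0.999 each. Of the HOX genes listed beside MIR10A and MIR10B, HOXB2, HOXB3, HOXB5, HOXB6 and HOXD3 stayed below the filter of 1 FPKM in 3 libraries, with their highest values in ZD8, from 0.358 FPKM for HOXB5 to 1.63 FPKM for HOXD3. LOC110257186, the nearest annotated gene before miR-10b, did not show this, with 0.840, 0.905 and 0.782 FPKM in SLS and 0.916, 0.717 and 0.881 FPKM in LLS ovaries. HOXD8 was the only HOX gene tested, at 8.39 to 11.8 FPKM, and its difference was -0.10 ± 0.27.

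Genes known from the literature as targets of the families were read from the limma fit over all 12260 genes, of which 0 were called (0.0%), with 216 at an unadjusted p under 0.05. Without ZD8, 20 genes were called, none of them on the target lists. The values of SLS and LLS ovaries did not overlap for 628 genes (5.12%), and the median log2 difference was 0.02. Of 13 miR-10 targets, 8 were tested, and all 8 differences were positive, with a median of 0.25 and 0 called. Over all genes, 6446 differences were positive and 5814 negative. The largest of the 8 miR-10 targets were those of TIAM1, an activator of the GTPase RAC1, at 0.68 ± 0.60 (SE), and of BCL6, a transcriptional repressor, at 0.53 ± 0.60. TIAM1 had 4.58, 5.97 and 8.47 FPKM in SLS and 6.56, 5.11 and 31.7 FPKM in LLS ovaries, and BCL6 had 3.78, 4.20 and 7.72 FPKM in SLS and 4.67, 3.74 and 23.1 FPKM in LLS ovaries. ZD8 was by far the highest ovary for both.

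Of 12 miR-99/100 targets, 11 were tested, 8 with a positive and 3 with a negative difference, with a median of 0.06 and 0 called. MTOR, the kinase itself, differed by -0.13 ± 0.26. The largest differences were -0.59 ± 0.31 for PLK1, a kinase of mitosis, and 0.38 ± 0.40 for FZD8, a WNT receptor. PLK1 had 6.70, 4.31 and 6.01 FPKM in SLS and 2.84, 4.95 and 2.66 FPKM in LLS ovaries, which overlap.

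Of 24 miR-125 targets, 19 were tested, 8 with a positive and 11 with a negative difference, with a median of -0.05 and 0 called. SCARB1, the receptor that takes up HDL cholesterol for steroid synthesis, differed by -1.43 ± 1.41 and LIF, a cytokine, by -1.13 ± 0.82, and both were far lower in ZD8 (31.2 and 0.233 FPKM) than in the other 5 ovaries (1044 to 1687 and 7.82 to 14.9 FPKM). Values did not overlap between groups for 2 of the 19, TP53INP1 and TNFAIP3. TP53INP1, a p53-induced gene, had 14.3, 24.0 and 21.0 FPKM in SLS and 38.3, 24.3 and 34.4 FPKM in LLS ovaries, a difference of 0.69 ± 0.30. TNFAIP3, an inhibitor of NF-kB signalling, had 2.30, 2.43 and 1.83 FPKM in SLS and 3.16, 2.52 and 2.50 FPKM in LLS ovaries, a difference of 0.23 ± 0.26. Their limma adjusted p was 0.999 each.

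The miRNAs outside the families with the most similar profile over the 6 ovaries were taken from 344 candidates by Pearson's r of log2(RPM + 1), as a description in which ovaries share depth and cell makeup. For miR-125b they were miR-181d-5p (r = 0.98), let-7c (0.98) and miR-29a-3p (0.96), and without the 2 ovaries farthest from the median, ZD12 and ZD2, r was 0.95, 0.99 and 0.91. For miR-10b they were miR-320 (0.99), miR-628-5p (0.98) and miR-30a-3p (0.96), with 0.997, 0.985 and 0.862 without ZD8 and ZD2. For miR-99a-5p they were miR-374a-5p (0.95), miR-210 (0.94) and miR-19a (0.92). Without ZD8 and ZD12, r fell to 0.35, 0.13 and 0.84, so that the likeness of miR-374a-5p and miR-210 to miR-99a-5p rests on those 2 ovaries.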

How the data were processed

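Total RNA without ribosomal RNA and small RNA were sequenced from 3 SLS and 3 LLS ovaries. Per the labels, the authors mapped reads to Sscrofa 11.1, with HISAT2 for total RNA, and BWA is named for small RNA. The authors deposited FPKM values for 29884 genes and RPM (reads scaled to an equal library total, named TPM in the table) for 457 mature miRNAs. Each of the 2618 miRNA values above 0 was a whole number of reads (tolerance 0.001 reads, 100.0% of values), so reads were recovered from RPM. The small RNA columns carry the ovary names, by which they were assigned to groups.

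limma 3.58.1 (R 4.3.3) with a variance trend was fitted to log2(RPM + 1) of the 353 miRNAs that reached 1 RPM in 3 or more libraries, and to log2(FPKM + 1) of 12260 genes filtered likewise at 1 FPKM. Fold changes on this scale understate changes of low values. The thresholds for a call were 0.05 for the p adjusted by Benjamini and Hochberg and 1 for the absolute log2 difference. Single values were compared by exact two-sided permutation, and shares of reads carry Wilson intervals. edgeR 4.0.16 and DESeq2 1.42.0 on recovered reads, other pseudocounts, filters and scalings, array weights and leaving out each ovary were alternatives. The fits were also run on simulated data, in which the changes were larger than the difference of any member. These runs do not show whether differences as small as those of the members would be called.

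All members, the let-7 miRNAs of their clusters, genes beside the hairpins, the 3 most similar miRNAs of each family's leading member, and those literature targets whose groups do not overlap or whose fold change is among the 2 largest of a list were named. The members and lists were chosen with earlier results of these data known. The hairpin genes, their hosts and the count of members highest in ZD12 and ZD8 were added after the values were seen. Columns for 12 samples were used. Mature sequences come from the deposited table and were matched to the reference genome.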

Additional observations from a re-analysis of the deposited data

How the results depend on the processing

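The counts of miRNAs and of members called, 0 each, and of listed genes called, 0, stayed at 0 under each alternative tried. Genes called rose from 0 to 13 (6 higher and 7 lower in LLS) with array weights, and without 1 ovary the count was between 0 and 20, the latter without ZD8 (14 higher, 6 lower). The cause was not tested. No member passed the threshold in any setting. Signs turned in 8 of 97 member fold changes with all ovaries kept. With array weights miR-10a-5p and miR-10a-3p were at -0.38 and -0.33. By edgeR's quasi-likelihood test, edgeR's exact test and DESeq2 they were larger than in limma, at 0.77, 0.78 and 0.82 for miR-10a-5p and 0.73, 0.75 and 0.78 for miR-10a-3p, where DESeq2 gave no p for miR-10a-3p. miR-99a-5p was at 0.033 by either edgeR test and 0.076 by DESeq2, and miR-100 at 0.0069, 0.007 and 0.049. With 1 ovary left out, the sign turned in 16 of 54. The ranges were -0.44 to 0.56 (miR-10a-5p), -0.77 to 0.68 (miR-10a-3p), -0.59 to 0.15 (miR-99a-5p), -0.95 to 0.51 (miR-99a-3p), -0.50 to 0.21 (miR-100), -0.37 to 0.86 (miR-125a) and -0.69 to 0.40 (miR-125b). Shares of the library, LLS minus SLS, also turned with 1 ovary left out. They ranged from -0.0004 to 0.0111 percentage points for the miR-10 family, -0.207 to 0.131 for miR-99/100, -1.39 to 0.714 for miR-125 and -1.49 to 0.856 for all 3. The log2 ratio of miR-125b to miR-125a, LLS minus SLS, was -0.42 and ranged from -0.54 to -0.30 with 1 ovary left out, an alternative chosen after seeing the data. Shares on the major arm ranged from -6.39 to 3.25 points for miR-10a and -0.718 to 1.94 for miR-99a. Family shares of the listed miRNAs alone, in place of the library, kept the sign. miR-10a-5p and miR-10a-3p could not be tested at a minimum of 10 RPM. No paired analysis was possible because the labels give the ovaries of the groups no shared numbers. With 3 ovaries a group and standard deviations within a group of up to 1.57 on the log2 scale, the intervals of 8 members reach beyond 2-fold. miR-10a-5p rests on 9 to 83 reads.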
